A study of Mus musculus with 106 samples.

Results

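Purkinje cell identity genes are represented by 7 listed mouse genes, Pcp2, Esrrb, Foxp2, Itpr1, Rora, Skor2 and Ppp1r17, of the 55401 mouse genes in the deposited count table. The genes were taken by name and matched by Ensembl identifier, no measured value entered the rule, and all 7 were found. Each is described by its level in every cell type and region, by its ratio between immunoprecipitated and total RNA, and by the difference between Huntington's disease (HD) model mice and controls.

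The study asked how neuron types of the cerebellum and of the rest of the brain respond to mutant huntingtin in knock-in mice. HD mice were Hdh Q7/Q200 and controls were their Hdh Q7/Q7 littermates, in the Gad2, vGluT2 and PV lines about 9 months old, on the 129S4 background and heterozygous for a Cre driver and for Rpl22-HA (RiboTag). Cre makes the cells of a driver line tag their ribosomes, so an immunoprecipitate (IP) of the tag carries the ribosome-bound RNA of those cells, and total RNA of the same homogenate carries the RNA of every cell. The drivers were Gad2-IRES-Cre (GABAergic neurons), vGluT2-IRES-Cre (glutamatergic neurons with Slc17a6), PV-IRES-Cre (parvalbumin neurons) and an SST driver (somatostatin neurons), a line known here from sample labels that state neither age nor background. Cerebellum was collected from the Gad2 and vGluT2 lines, and cerebrum, which is the brain without cerebellum and olfactory bulb, from all lines. The 67 IP and 39 total RNA libraries came from 45 mice and formed 24 groups. Cerebellar Gad2 IPs numbered 6 control and 6 HD, cerebellar vGluT2 IPs 5 and 6, cerebral Gad2 IPs 6 and 6, cerebral vGluT2 IPs 6 and 6, PV IPs 6 and 5, and SST IPs 5 and 4. Cerebellar total RNA numbered 3 control and 3 HD libraries in the Gad2 line and 4 and 4 in the vGluT2 line. Cerebral total RNA numbered 3 and 3 in each of the Gad2, vGluT2 and PV lines and 4 and 3 in the SST line. Library totals ran from 21905221 to 107753586 estimated counts, with a median of 35866725.

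Purkinje cells are the large GABAergic neurons whose axons are the sole output of the cerebellar cortex. Glutamate from parallel fibres acts through phospholipase C and inositol trisphosphate, which opens the IP3 receptor and releases calcium from the endoplasmic reticulum. Their identity is set and kept by transcription factors, among them Rora, whose loss in staggerer mice stops Purkinje cell maturation. A cerebellar Gad2 IP also holds RNA of the other GABAergic cerebellar neurons, such as molecular layer interneurons and Golgi cells, so a level in it is not that of Purkinje cells alone.

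Levels are CPM (counts scaled to library size, as edgeR gives them) after TMM scaling over all libraries, given as mean ± SD with n libraries unless stated. Markers of the Gad2, PV and SST drivers fitted the labels, and Slc17a6 set the cerebral vGluT2 IPs apart from Gad2 IPs but not from PV and SST IPs. Gad1, which makes GABA, averaged 1915 ± 431 CPM in 12 cerebellar Gad2 IPs, 139 ± 57.1 in 11 cerebellar vGluT2 IPs and 482 ± 85.2 in 14 cerebellar total RNA libraries. Gabra6, a GABA receptor subunit of granule cells, averaged 1147 ± 283 CPM in the cerebellar vGluT2 IPs, 149 ± 51.0 in the cerebellar Gad2 IPs and 449 ± 153 in the total RNA. Car8, a Purkinje cell protein that binds the IP3 receptor, averaged 3733 ± 492 CPM in the cerebellar Gad2 IPs, 162 ± 67.5 in the vGluT2 IPs and 1027 ± 279 in the total RNA. Pvalb averaged 661 ± 99.8 CPM in 11 PV IPs against 134 ± 45.6 in 18 cerebral total RNA libraries. Sst averaged 1437 ± 508 CPM in 9 SST IPs against 169 ± 63.4 in the 7 total RNA libraries of that line. Slc17a6 averaged 111 ± 35.9 CPM in cerebral vGluT2 IPs, 16.0 ± 8.16 in cerebral Gad2 IPs, 54.4 ± 32.4 in cerebral total RNA, 121 ± 31.7 in PV IPs and 113 ± 30.9 in SST IPs.

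Some libraries stood apart and are named before the results that rest on them. Cerebrum should hold no Purkinje cells, yet 13 cerebral libraries had Car8 above 30 CPM. Among them, HD PV IP replicate 3 had Car8 at 645 CPM, Pcp2 at 176, Ppp1r17 at 130.2 and Skor2 at 7.67, together with the granule cell genes Gabra6 at 85.0, Cbln3 at 219.6 and Fat2 at 67.6. Control PV IP replicate 2 had Car8 at 252 CPM, Pcp2 at 84.3 and Ppp1r17 at 54.8. Control cerebral Gad2 IP replicate 4 had Car8 at 102 CPM, Pcp2 at 72.6 and Ppp1r17 at 31.3, and HD cerebral Gad2 IP replicate 2 had 151, 59 and 35.4 CPM in the same order. Granule cell genes were far lower in control cerebral Gad2 IP replicate 4 than in HD PV IP replicate 3. Gabra6 was 0.541 CPM, Cbln3 4.14 and Fat2 2.05 in that Gad2 IP, against 1.04, 4.39 and 0.411 in replicate 1 of its group. In the rest of that group Gabra6 was 0 to 0.433 CPM, Cbln3 0.209 to 1.58 and Fat2 0.167 to 0.535. The other 9 were control Gad2 IP 3, HD Gad2 IP 3, control PV IPs 4 and 6, control Gad2 total RNA 2, HD Gad2 total RNA 2, HD PV total RNA 2, control SST total RNA 1 and HD SST total RNA 2, with Car8 between 30.8 and 65.2 CPM. In the cerebellum, 3 libraries of the vGluT2 line had Tcf7l2, a transcription factor of thalamic neurons, above 20 CPM. Control vGluT2 IP replicate 5 had Tcf7l2 at 109.8 CPM, Slc17a6 at 114 and Foxp2 at 20.3. HD vGluT2 IP replicate 5 had 29.2, 73.5 and 5.67 CPM, and control vGluT2 total RNA replicate 4 had 67.6, 68.7 and 21.2 CPM. Fits without these libraries are given where they moved a call, a direction or a large part of a change, but no such fit was made for cerebellar Gad2 IPs against total RNA or for the interactions.

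**Figure D1:**
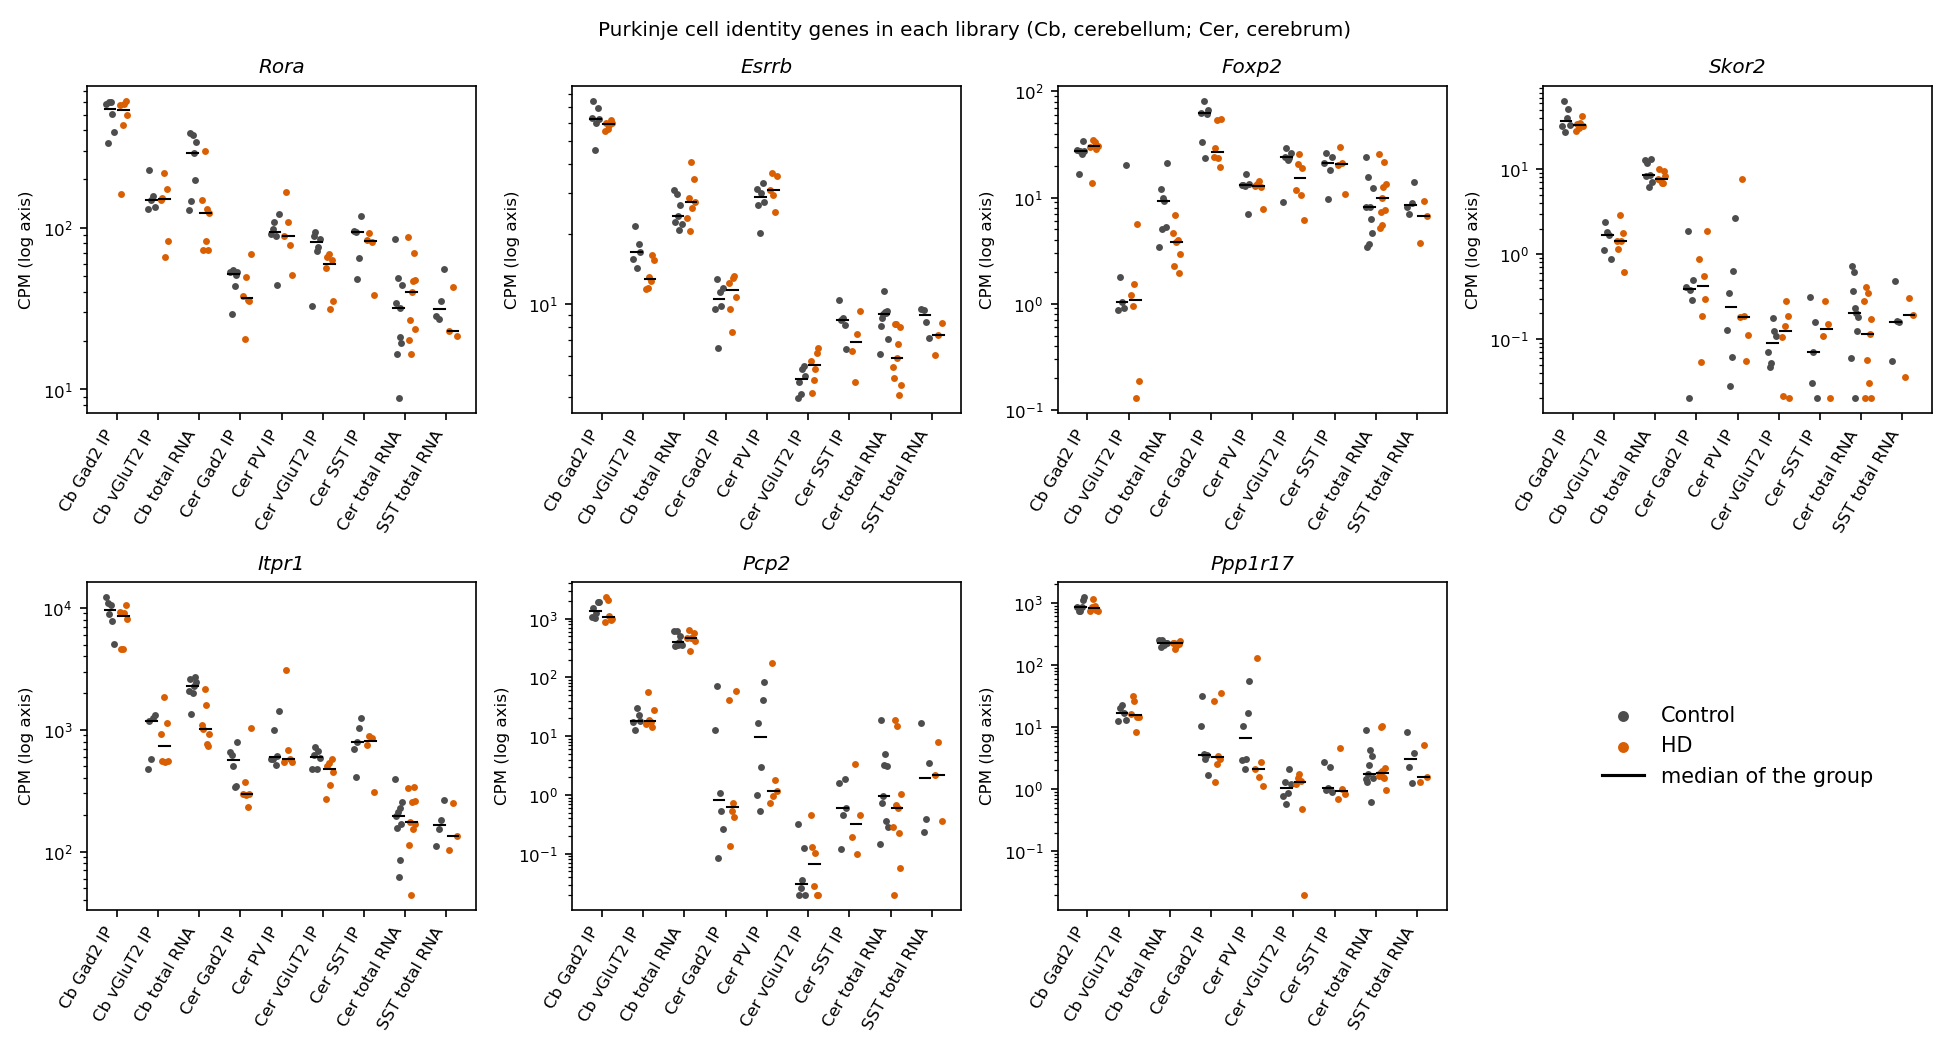
CPM of the 7 genes in each of the 106 libraries by group on a log axis (grey control, orange HD, black line the group median, zeros drawn at 0.02 CPM). Cerebellar Gad2 IPs are the highest set for 6 of the genes, Pcp2 lying between 890.3 and 2296 CPM there, and cerebral Gad2 IPs are the highest for Foxp2.

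The transcriptional regulators come first. Rora (ENSMUSG00000032238.17, chr9:68653786-69388246, plus strand, GRCm38) encodes the nuclear receptor RORα. Its lowest, median and highest levels were 161, 539 and 609.5 CPM in 12 cerebellar Gad2 IPs, 72.6, 148 and 387 CPM in 14 cerebellar total RNA libraries, and 66.2, 149.5 and 229 CPM in 11 cerebellar vGluT2 IPs. The Gad2 IPs overlapped both other cerebellar sets, the vGluT2 IPs only through HD Gad2 IP replicate 4, which was the lowest at 161 CPM. Its mean fell in the order cerebellar Gad2 IPs (488 ± 138 CPM, n = 12), cerebellar total RNA (199.9 ± 115, n = 14), cerebellar vGluT2 IPs (149 ± 48.6, n = 11), PV IPs (95.2 ± 33.3, n = 11), SST IPs (79.9 ± 25.4, n = 9), cerebral vGluT2 IPs (64.2 ± 21.6, n = 12), cerebral Gad2 IPs (44.4 ± 13.2, n = 12), cerebral total RNA (38.3 ± 23.3, n = 18) and SST-line total RNA (33.4 ± 12.3, n = 7). Apart from the step below the cerebellar Gad2 IPs, the mean ± SD ranges of neighbours in that order overlapped.

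Esrrb (ENSMUSG00000021255.17, chr12:86361117-86521628, plus strand) encodes the orphan nuclear receptor ERRβ. Its lowest, median and highest levels were 46.0, 60.2 and 74.7 CPM in the cerebellar Gad2 IPs, 20.7, 26.4 and 40.8 in cerebellar total RNA, and 11.6, 15.5 and 21.6 in cerebellar vGluT2 IPs. The Gad2 IPs did not overlap the other cerebellar sets, and those sets overlapped each other. PV IPs of the cerebrum came next to the cerebellar Gad2 IPs, at 29.7 ± 4.75 CPM (n = 11), and no PV library passed 36.7 CPM. Below the cerebellar total RNA (27.0 ± 5.70) and vGluT2 IPs (15.2 ± 3.01) stood cerebral Gad2 IPs (10.7 ± 2.16), SST-line total RNA (8.07 ± 1.27), SST IPs (7.79 ± 1.78), cerebral total RNA (7.45 ± 2.0) and cerebral vGluT2 IPs (5.07 ± 0.811). Among neighbours in the order, mean ± SD ranges were apart only between the cerebellar Gad2 IPs and the PV IPs, and between cerebellar total RNA and the cerebellar vGluT2 IPs.

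Skor2 (ENSMUSG00000091519.1, chr18:76856405-76900342, plus strand) encodes a transcriptional corepressor of developing Purkinje cells. Its lowest, median and highest levels were 27.4, 33.7 and 63.9 CPM in the cerebellar Gad2 IPs, 6.11, 8.31 and 13.1 in cerebellar total RNA, and 0.620, 1.44 and 2.88 in cerebellar vGluT2 IPs. These 3 sets did not overlap. In the cerebrum its set means were 1.10 ± 2.31 CPM in PV IPs, 0.607 ± 0.638 in Gad2 IPs, 0.217 ± 0.209 in total RNA, 0.198 ± 0.152 in SST-line total RNA, 0.123 ± 0.114 in SST IPs and 0.110 ± 0.0802 in vGluT2 IPs, and mean ± SD ranges of neighbours overlapped. In 7 cerebral libraries no count was seen. The rate of 3 counts, which covers counting error only, ran in them from 0.0590 CPM in HD cerebral vGluT2 IP re_R1 to 0.125 CPM in control cerebral Gad2 IP replicate 5.

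Foxp2 (ENSMUSG00000029563.16, chr6:14901349-15441977, plus strand) encodes a forkhead transcription factor that outside the cerebellum is also made in striatal, thalamic and deep cortical neurons. It was the exception among the 7. Its lowest, median and highest levels were 19.3, 43.6 and 81.4 CPM in 12 cerebral Gad2 IPs, 13.6, 28.5 and 35.2 in the cerebellar Gad2 IPs, 1.95, 4.82 and 21.2 in cerebellar total RNA, and 0.128, 1.04 and 20.3 in cerebellar vGluT2 IPs. The cerebral and cerebellar Gad2 IPs overlapped, and the highest value of each of the other cerebellar sets was from a library with high Tcf7l2. Between the Gad2 sets and the cerebellar total RNA (6.60 ± 5.17 CPM) stood SST IPs (20.1 ± 6.57), cerebral vGluT2 IPs (19.1 ± 7.73), PV IPs (12.5 ± 2.76), cerebral total RNA (10.8 ± 6.91) and SST-line total RNA (8.24 ± 3.19), and mean ± SD ranges of neighbours in the order overlapped. Cerebellar vGluT2 IPs were lowest at 3.15 ± 5.89 CPM.

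Itpr1 (ENSMUSG00000030102.11, chr6:108213096-108551109, plus strand) encodes the type 1 IP3 receptor, the calcium release channel of the Purkinje cell endoplasmic reticulum. Its lowest, median and highest levels were 4606, 8959 and 12194 CPM in the cerebellar Gad2 IPs, 736, 1788 and 2721 in cerebellar total RNA, and 477, 919 and 1867 in cerebellar vGluT2 IPs. The Gad2 IPs were above every other library, while the cerebellar total RNA and vGluT2 IPs overlapped. Means in the cerebrum were 921 ± 770.0 CPM in PV IPs, 778 ± 289.9 in SST IPs, 519 ± 126 in vGluT2 IPs, 481 ± 247 in Gad2 IPs, 199.6 ± 95.6 in total RNA and 171 ± 65.0 in SST-line total RNA, and in the whole order only the cerebellar Gad2 IPs were apart from the next set by their mean ± SD ranges. HD PV IP replicate 3, at 3090.1 CPM, raised the PV mean, as the other HD PV IPs lay between 544 and 681 CPM.

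Pcp2 and Ppp1r17 act in signalling. Pcp2 (ENSMUSG00000004630.18, chr8:3623371-3625545, minus strand) encodes a regulator of G protein signalling found in Purkinje cells and retinal bipolar cells, and Ppp1r17 (ENSMUSG00000002930.6, chr6:56017497-56032689, plus strand) encodes an inhibitor of protein phosphatases that is phosphorylated by the cGMP-dependent kinase. Pcp2 had lowest, median and highest levels of 890.3, 1183 and 2296 CPM in the cerebellar Gad2 IPs, 282, 463 and 639 in cerebellar total RNA, and 12.7, 18.2 and 57.1 in cerebellar vGluT2 IPs. Ppp1r17 had 727, 849.6 and 1216 CPM, 183, 222 and 252 CPM, and 8.20, 16.1 and 31.8 CPM in the same sets. For both genes the 3 cerebellar sets did not overlap. In the cerebrum Pcp2 had medians of 1.78 CPM in PV IPs, 0.634 in Gad2 IPs, 0.465 in SST IPs, 0.0317 in vGluT2 IPs, 0.708 in total RNA and 2.17 in SST-line total RNA. Its cerebral means were far above those medians, at 29.8 ± 55.1 CPM in PV IPs and 15.8 ± 26.3 in Gad2 IPs, because of the libraries with high Car8. Ppp1r17 had cerebral medians of 2.93 CPM in PV IPs, 3.50 in Gad2 IPs, 1.02 in SST IPs, 1.21 in vGluT2 IPs, 1.78 in total RNA and 2.29 in SST-line total RNA. For both genes the mean ± SD ranges of cerebellar Gad2 IPs and of cerebellar total RNA were apart from the set below them, and the other neighbours overlapped. Pet100 overlaps Pcp2 on the opposite strand and was counted separately in these stranded libraries, at 20.4 ± 7.75 CPM in the cerebellar Gad2 IPs and 18.4 ± 4.07 in the cerebellar vGluT2 IPs.

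Levels of different genes compare only per length of exon. In the cerebellar Gad2 IPs the mean was 773 CPM per kb of exon for Pcp2, 505 for Ppp1r17, 461 for Itpr1, 37.4 for Rora, 12.0 for Skor2, 10 for Esrrb and 1.69 for Foxp2. The signalling and calcium genes were thus above the transcriptional regulators on that scale.

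Over the means of the 24 groups, on a scale of log2(CPM + 1), the members fell into like and unlike patterns. Pcp2 and Ppp1r17 had a Pearson r of 0.993, Skor2 and Ppp1r17 0.977, and Itpr1 and Rora 0.970, whereas Foxp2 had r between -0.13 and 0.147 with the others. Among other protein-coding genes, those most like Pcp2 were Car8 (0.983), Zfp385c (0.977) and Atp2a3 (0.975), and those most like Ppp1r17 were Zfp385c (0.994), Hes3 (0.990) and Car8 (0.986). Those most like Esrrb were Colq (0.987), Cerk (0.982) and Kcng4 (0.978), and those most like Skor2 were Il22 (0.995), Icmt (0.995) and Slc5a1 (0.994). Those most like Itpr1 were Clmp (0.973), Atl2 (0.971) and Arhgap26 (0.971), and those most like Rora were Arhgap26 (0.980), Arhgap5 (0.979) and Inpp1 (0.977). Foxp2 was most like Mgat4c (0.943), Cacna2d3 (0.924) and Prps2 (0.914). Groups share mice and region, so these values describe and carry no test.

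Whether the tag enriched Purkinje cell RNA was asked by comparing cerebellar Gad2 IPs with cerebellar total RNA. All 7 members were higher in the IPs, 2.25-fold for Esrrb up to 5.20-fold for Itpr1 (12 IPs against 14 total RNA libraries, edgeR's quasi-likelihood test, called at a Benjamini-Hochberg adjusted p of 0.05 or less and a change of 2-fold or more). In that comparison 8.97% of the 14411 genes tested were called higher, and 2543 genes were called lower. The log2 ratios were 2.38 for Itpr1 (SE 0.190), 2.21 for Foxp2 (SE 0.276), 2.08 for Skor2 (SE 0.134), 2.0 for Ppp1r17 (SE 0.0878), 1.60 for Pcp2 (SE 0.166), 1.37 for Rora (SE 0.245) and 1.17 for Esrrb (SE 0.0984), with adjusted p from 3.85e-17 to 1.69e-05. For Itpr1, Skor2, Ppp1r17, Pcp2 and Esrrb every IP was above every total RNA library. The share of all genes that separate in this way is not given, here or for other sets that did not overlap. The members' median was 2.0 against 0.010 over all genes. Using control mice only, Rora was 0.86 on the log2 scale (adjusted p = 0.00904), under the 2-fold limit. All 7 were called in each of 12 fits without an IP library.

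Other lists placed the members among cerebellar cell types. Of 25 further Purkinje cell genes, 21 were called higher and 0 lower in the cerebellar Gad2 IPs (median log2 ratio 1.57), the largest being the calcium buffer Calb1 (2.32, SE 0.145), Dner (2.09, SE 0.104), Pcp4 (2.07, SE 0.156) and the glutamate transporter Slc1a6 (1.97, SE 0.102). GABAergic neurons other than Purkinje cells were enriched too: 6 of 6 molecular layer interneuron genes (median 1.97; Nxph1 2.08, Tfap2b 2.07, Sorcs3 2.01 and Grik3 1.94) and 4 of 4 Golgi cell genes (median 1.59; Lgi2 1.75, Grm2 1.62, Slc6a5 1.57 and Gjd2 1.13) were called higher, as were 3 of 3 general GABAergic genes (median 1.91; Gad1 2.0, Slc32a1 1.91 and Gad2 1.79). Called lower were 7 of 8 granule cell genes (median -2.11; Slc17a7 -2.55, Cbln3 -2.35, Neurod1 -2.19 and Etv1 -2.18), 2 of 2 unipolar brush cell genes (median -1.72; Lmx1a -1.94 and Eomes -1.5), 5 of 5 astrocyte and Bergmann glia genes (median -2.16; Apoe -2.79, Gfap -2.47, Slc1a3 -2.16 and Aqp4 -1.79), 4 of 4 oligodendrocyte genes (median -2.21; Mog -3.24, Mbp -2.54 and Mobp -1.88 among them) and 2 of 5 microglial genes (median -0.96; Tmem119 -1.5, Csf1r -1.17, and P2ry12 and Cx3cr1, not called, both -0.96). Of the thalamic genes 1 was higher and 3 lower of 4 (median -1.27; Tcf7l2 -2.38, Prkcd 1.77, Rorb -1.47 and Slc17a6 -1.08), and of 4 tested striatal projection neuron genes 1 was higher and 1 lower (median -0.67; Adora2a -3.0, Penk 2.09, and Rgs9 -0.80 and Drd2 -0.54, not called).

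Lists that share members or their pathways were counted too. In the calcium signalling pathway that ends on Itpr1, 11 of 13 genes were called higher and 0 lower in the cerebellar Gad2 IPs (median log2 ratio 1.57), with Itpr1 (2.38), Calb1 (2.32) and Car8 (1.88, SE 0.13) at the top and the G protein subunit gene Gna11 at -0.56 (SE 0.0980). Of 6 genes known to depend on Rora in Purkinje cells, 5 were called higher (median 1.95; Itpr1 2.38, Pcp4 2.07, Slc1a6 1.97 and Shh 1.93). In cGMP signalling, which leads to Ppp1r17, 2 of 5 genes were called higher (median 0.47), the kinase gene Prkg1 at 1.32 (SE 0.236) and the guanylate cyclase subunit gene Gucy1b1 at 1.07 (SE 0.126), with Ppp2ca at 0.47 and Ppp1ca at -0.29 not called. Of 9 relatives of the members 3 were called higher and 4 lower (median -0.63). Higher were the corepressor gene Skor1 (2.0, SE 0.0942), Esrrg (1.90, SE 0.201) and Foxp4 (1.18, SE 0.125), and among those lower were Rorb (-1.47), Itpr2 (-1.29) and Itpr3 (-1.15). Itpr2 averaged 5.32 CPM and Itpr3 3.91 CPM in the cerebellar Gad2 IPs, in which Itpr1 averaged 8453 ± 2545 CPM.

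**Figure D2:**
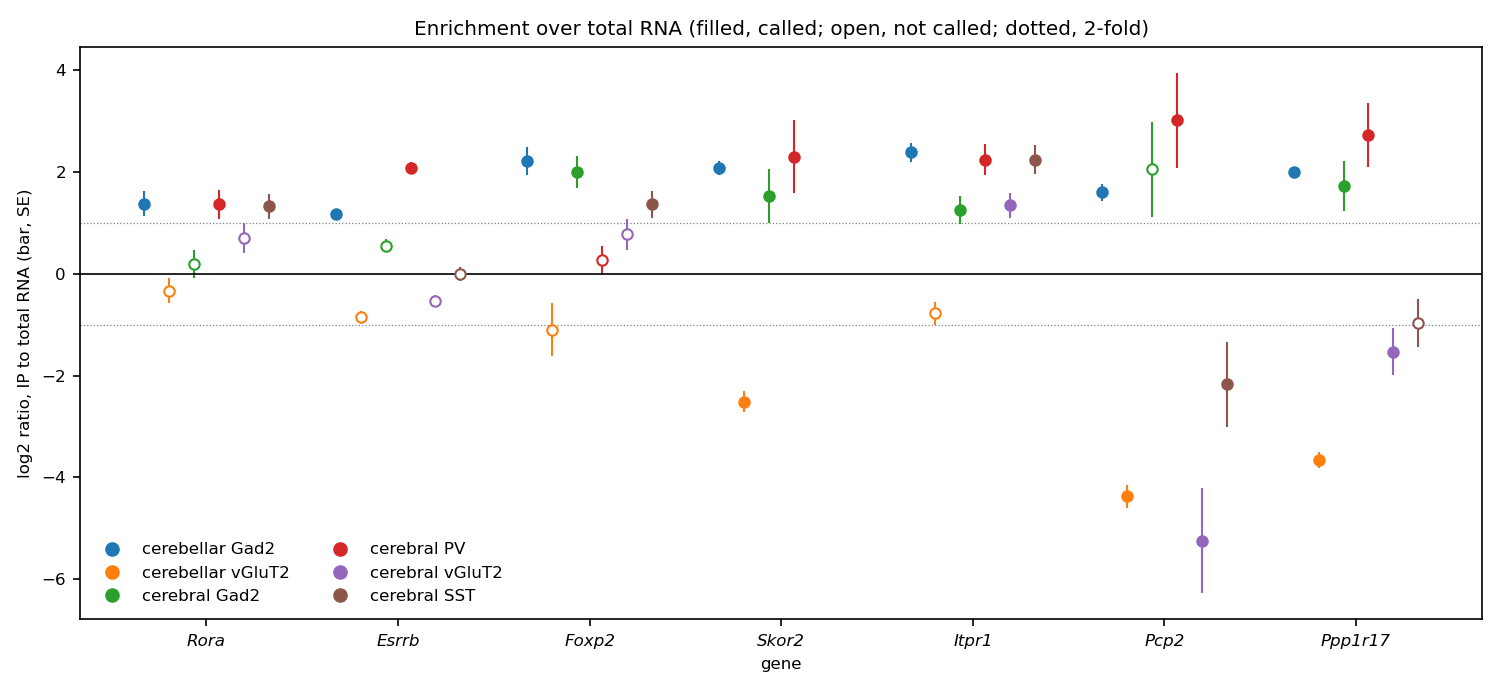
Log2 ratio of IP to total RNA for the 7 genes in each of the 6 IP sets, with bars of 1 SE, filled points for called ratios and dotted lines at 2-fold. All 7 are above 2-fold in cerebellar Gad2 IPs, from 1.17 to 2.38, and all lie below 0 in cerebellar vGluT2 IPs, from -0.33 to -4.37.

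In cerebellar vGluT2 IPs, which are dominated by granule cells, 3 of the 7 members were depleted relative to total RNA, with 21.1% of all genes called lower (11 IPs, and the same 14 total RNA libraries as for the Gad2 IPs). Pcp2 was 20.6-fold lower (log2 ratio -4.37, SE 0.229, adjusted p = 2.61e-15), Ppp1r17 12.6-fold lower (-3.65, SE 0.156, adjusted p = 6.21e-17) and Skor2 5.70-fold lower (-2.51, SE 0.198, adjusted p = 1.26e-11). Not called by edgeR were Foxp2 (-1.10, SE 0.519, adjusted p = 0.0601), Esrrb (-0.85, SE 0.120), Itpr1 (-0.78, SE 0.231) and Rora (-0.33, SE 0.241, adjusted p = 0.233). By DESeq2 Foxp2 was -1.13 (adjusted p = 0.0477) and called. Without the 3 libraries with high Tcf7l2, Foxp2 was -2.49 (SE 0.345, adjusted p = 9.20e-07) and called, and using control mice only Itpr1 was -1.26 (adjusted p = 5.86e-04) and called. Members had a median of -1.10 against 0.059 over all genes. Of the 25 other Purkinje cell genes 18 were called lower and 1 higher (median -1.96), with Gng13 (-4.67), Homer3 (-3.38), Pcp4 (-3.18) and Atp2a3 (-2.81) the largest, and Plcb4, a phospholipase C gene, higher at 1.02 (SE 0.232).

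A direct comparison of the cerebellar IPs, 12 Gad2 against 11 vGluT2, gave higher levels of all 7 members in the Gad2 IPs, with 16.7% of 13971 genes called higher. Pcp2 was 63.6-fold higher (log2 5.99, SE 0.286, adjusted p = 9.74e-16), Ppp1r17 51.4-fold (5.68, SE 0.197), Skor2 24.6-fold (4.62, SE 0.207), Foxp2 9.97-fold (3.32, SE 0.561), Itpr1 9.15-fold (3.19, SE 0.233), Esrrb 4.08-fold (2.03, SE 0.0898) and Rora 3.36-fold (1.75, SE 0.190, adjusted p = 9.89e-09). Every Gad2 IP was above every vGluT2 IP for Pcp2, Ppp1r17, Skor2, Itpr1 and Esrrb, and the Rora and Foxp2 ranges overlapped. By edgeR 10011 of the 13971 genes had an unadjusted p under 0.05, and the share that separate in this way is not given. Without the libraries with high Tcf7l2, Foxp2 was 4.89 (SE 0.297). Rora is known as a gene of molecular layer interneurons as well as Purkinje cells, and in the vGluT2 IPs it stood at 149 ± 48.6 CPM. Over the members the median was 3.32 against 8.0e-04 over all genes, and 22 of the 25 other Purkinje cell genes were called higher (median 3.53; Gng13 6.22, Pcp4 5.30, Homer3 4.94 and Slc1a6 4.75). Of the 13 genes of the calcium signalling pathway 10 were called higher (median 3.19), of the Rora-dependent genes 5 of 6 (median 4.20), of the cGMP genes 2 of 5 (median 0.53), and of the relatives 4 of 9, with 3 lower (median 0.68; Skor1 4.84, Esrrg 2.68, Foxp4 2.03 and Itpr3 -1.42).

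The same Gad2 driver in the cerebrum tags neurons that are not Purkinje cells, and the region comparison asked what sets the cerebellar ones apart. In Gad2 IPs 6 of 7 members were higher in cerebellum, with 11.8% of 14472 genes called higher (12 libraries each). Pcp2 was 85.0-fold higher (log2 6.41, SE 0.974), Ppp1r17 81.0-fold (6.34, SE 0.566), Skor2 55.9-fold (5.81, SE 0.398), Itpr1 16.8-fold (4.07, SE 0.245), Rora 10.5-fold (3.40, SE 0.193) and Esrrb 5.44-fold (2.44, SE 0.109), with adjusted p from 6.81e-17 to 2.12e-06. Foxp2 was -0.72 (SE 0.213, adjusted p = 0.00466) and not called, and using control mice only it was -1.10 (adjusted p = 0.00175) and called lower in cerebellum. No cerebellar Gad2 IP overlapped a cerebral one for the 6 higher genes. By edgeR 9814 of the 14472 genes had an unadjusted p under 0.05, and the share that separate in this way is not given. The cerebral levels of some rested on the libraries with high Car8, and without those the differences were 11.45 for Pcp2 (SE 0.421), 8.27 for Ppp1r17 (SE 0.228), 6.99 for Skor2 (SE 0.322), 4.38 for Itpr1, 3.46 for Rora, 2.5 for Esrrb and -0.71 for Foxp2, with the same calls. The members' median was 4.07 against -0.024 over all genes, and 24 of the 25 other Purkinje cell genes were called higher and 1, the striatal phosphatase inhibitor gene Ppp1r1b, lower (median 3.48; Car8 6.67, Atp2a3 6.47, Homer3 5.95, Slc1a6 5.02, and Ppp1r1b -2.26). Among the relatives 5 of 9 were called higher and 2 lower (median 1.51; Skor1 4.48, Foxp1 -3.72, Itpr3 2.40 and Esrrg 1.90).

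Total RNA showed the regional difference without any tag. There 6 of 7 members were higher in cerebellum, with 8.63% of 14860 genes called higher (14 cerebellar, 18 cerebral libraries). The log2 differences were 6.91 for Pcp2 (SE 0.713), 6.11 for Ppp1r17 (SE 0.350), 5.33 for Skor2 (SE 0.353), 3.0 for Itpr1 (SE 0.268), 2.28 for Rora (SE 0.320) and 1.87 for Esrrb (SE 0.119). Foxp2 was -0.86 (SE 0.354, adjusted p = 0.0354), under 2-fold, and -1.07 (adjusted p = 0.00600) and called lower without the library with high Tcf7l2. Without the libraries with high Car8, Pcp2 was 8.97 (SE 0.544), Ppp1r17 6.88 (SE 0.203) and Skor2 5.79 (SE 0.365), and calls were the same. Over the members the median was 3.0 against 0.010 over all genes, and 19 of the 25 other Purkinje cell genes were called higher (median 2.25; Car8 5.78, Atp2a3 5.03, Homer3 4.40 and Lhx1 4.38).

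In vGluT2 IPs 5 of 7 members were higher in cerebellum, with 13.5% of 14253 genes called higher, and 1, Foxp2, was lower, with 20.6% called lower (11 and 12 libraries). The log2 differences were 7.73 for Pcp2 (SE 0.463), 3.92 for Ppp1r17 (SE 0.360), 3.72 for Skor2 (SE 0.420), 1.49 for Esrrb (SE 0.122), 1.15 for Rora (SE 0.177) and -2.81 for Foxp2 (SE 0.562). Itpr1 was 0.79 (SE 0.196) and not called. Pcp2, Ppp1r17 and Skor2 were depleted in the cerebellar vGluT2 IPs relative to cerebellar total RNA (log2 ratios -4.37, -3.65 and -2.51). Whether their RNA in these IPs came from the tagged neurons was not tested. The lowest cerebellar vGluT2 IP had Pcp2 at 12.7 CPM and the highest cerebral vGluT2 IP had 0.453 CPM, so those sets did not overlap for Pcp2. Without the libraries with high Tcf7l2 Foxp2 was -4.39 (SE 0.348). Of the 25 other Purkinje cell genes 11 were called higher and 5 lower (median 0.97; Car8 5.47, Lhx1 5.15, Atp2a3 4.27 and Pcp4 -3.23). Members had a median of 1.49 against -0.0080 over all genes.

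In the cerebrum, where a ratio of IP to total RNA compares the tagged neurons with the whole tissue, some members were called too. In 12 cerebral Gad2 IPs against 18 total RNA libraries, 4 of 7 members were higher, with 5.53% of all genes called higher. They were Foxp2 (log2 2.0, SE 0.312), Ppp1r17 (1.72, SE 0.497), Skor2 (1.53, SE 0.526) and Itpr1 (1.25, SE 0.275), while Pcp2 (2.05, SE 0.937, adjusted p = 0.0570), Esrrb (0.55, SE 0.124) and Rora (0.19, SE 0.280) were not called by edgeR. By DESeq2 Pcp2 was 2.01 (adjusted p = 0.0476) and called. Without the libraries with high Car8, 2 members were called, Foxp2 at 2.04 and Itpr1 at 1.04, with Ppp1r17 at 0.62, Pcp2 at -0.76 and Skor2 below the filter. Against total RNA of the Gad2 line alone the 2 were the same count, Skor2 at 1.02 and Ppp1r17 at 1.30 losing their calls and Rora at -0.039. With control mice only, or with the mouse as a replicate block (paired libraries of a mouse), Skor2 was 1.08 and 1.12 and not called, and in the blocked fit Pcp2 was 1.5 and called. Of the 25 other Purkinje cell genes 6 were called higher and 1 lower (median 0.28; Ppp1r1b 2.15, Aldoc -1.49, Calb1 1.44 and Lhx5 1.38).

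In 11 PV IPs 6 of 7 members were higher than in cerebral total RNA, with 11.2% of 14896 genes called higher. They were Pcp2 (log2 3.01, SE 0.930), Ppp1r17 (2.73, SE 0.630), Skor2 (2.30, SE 0.714), Itpr1 (2.24, SE 0.308), Esrrb (2.08, SE 0.116) and Rora (1.36, SE 0.289), and Foxp2 (0.26, SE 0.288) was not called. Without the libraries with high Car8, 3 were called, Esrrb at 2.09, Itpr1 at 1.71 and Rora at 1.19, with Pcp2 at 0.84, Ppp1r17 at 0.34 and Skor2 below the filter on low counts. Skor2 also lost its call with total RNA of the PV line alone (2.14), with control mice only (1.26) and with the mouse as a replicate block (2.48, adjusted p = 0.0575), and Pcp2 with total RNA of the PV line alone (2.89, adjusted p = 0.0643). Esrrb lay between 20.2 and 36.7 CPM in the PV IPs and between 4.08 and 11.4 CPM in cerebral total RNA, and the sets did not overlap. Of the 25 other Purkinje cell genes 11 were called higher and 1 lower (median 0.98; Ppp1r1b -2.76, Car8 2.49 and Plcb3 1.79 among them).

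In 12 cerebral vGluT2 IPs, 1 of 6 tested members, Itpr1, was higher than in total RNA (log2 1.34, SE 0.242), with 6.0% of 14839 genes called higher, and 2 were lower, Pcp2 (-5.24, SE 1.03) and Ppp1r17 (-1.53, SE 0.458), with 16.3% called lower. Esrrb (-0.54, SE 0.123), Foxp2 (0.77, SE 0.307) and Rora (0.70, SE 0.286) were not called, and Skor2 did not pass the filter. Without the libraries with high Car8, with total RNA of the vGluT2 line alone or with the mouse as a replicate block, Ppp1r17 was -0.78, -0.64 and -0.74 and not called. Pcp2 was -3.04 (SE 0.783) and still called without the libraries with high Car8. Using control mice only, Foxp2 (1.21) and Rora (1.09) were called higher as well. In 9 SST IPs against total RNA of the SST line, 3 of 6 tested members were higher, Itpr1 (2.24, SE 0.282), Foxp2 (1.36, SE 0.260) and Rora (1.32, SE 0.237), with 13.9% of 14865 genes called higher, and 1, Pcp2 (-2.17, SE 0.837), was lower, with 10.4% called lower. Esrrb (-3.5e-04, SE 0.138) was not called and Skor2 did not pass the filter. Pcp2 was -0.46 and not called without the libraries with high Car8, and -1.97 and not called against total RNA of all cerebral lines, while Ppp1r17 (-0.97, SE 0.477) was -1.05 and called with the mouse as a replicate block, and -0.20 (SE 0.470) and not called without the libraries with high Car8. Of the 25 other Purkinje cell genes 2 were called higher and 8 lower in the vGluT2 IPs (median -0.091; Aldoc -2.49, Car8 -2.41, Atp2a3 -2.10 and Plcb3 -1.67), and 5 higher and 4 lower in the SST IPs (median 0.051; Plcb4 2.18, Ppp1r1b -2.0, Kcnma1 1.91 and Gng13 -1.60).

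Whether HD changed the members in cells with the Gad2 driver was asked in 6 HD and 6 control cerebellar IPs. None of the 7 was called by edgeR, and 0.0142% of the 14098 genes tested were called (2 genes, with 340 at an unadjusted p under 0.05, 22 by DESeq2 and 0 members by DESeq2). Itpr1 was 5044, 9662 and 12194 CPM (lowest, median, highest) in controls and 4606, 8580.5 and 10534 CPM in HD, with a log2 fold change of -0.30 (95% interval -0.75 to 0.14). Rora was 333, 543 and 600.2 CPM in controls and 161, 535 and 609.5 CPM in HD, a change of -0.12 (-0.61 to 0.37). Skor2 was 27.4, 36.8 and 63.9 CPM in controls and 28.6, 33.5 and 42.7 CPM in HD, a change of -0.33 (-0.71 to 0.045). The groups overlapped for each gene, and Rora was lowest in HD replicate 4, at 161 CPM, without which its change was 0.057. Pcp2 was -0.11 (-0.64 to 0.43), Esrrb -0.13 (-0.36 to 0.091), Ppp1r17 -0.14 (-0.45 to 0.18) and Foxp2 0.063 (-0.34 to 0.46), and all 7 had an adjusted p of 1.0. Foxp2 was -0.036 without control replicate 4. The members' median was -0.13 against -0.0097 over all genes. The other 25 Purkinje cell genes had 0 called by edgeR, 0 above 0 and a median of -0.18, with Plcb3 (-0.59, SE 0.206) and Aldoc (-0.55, SE 0.136) among the farthest. The share of all genes below 0 is not given, and genes of the same cell type can move together. Their summed level was 27118 to 40232 CPM in controls and 26559 to 31991 CPM in HD, so the groups overlapped.

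**Figure D3:**
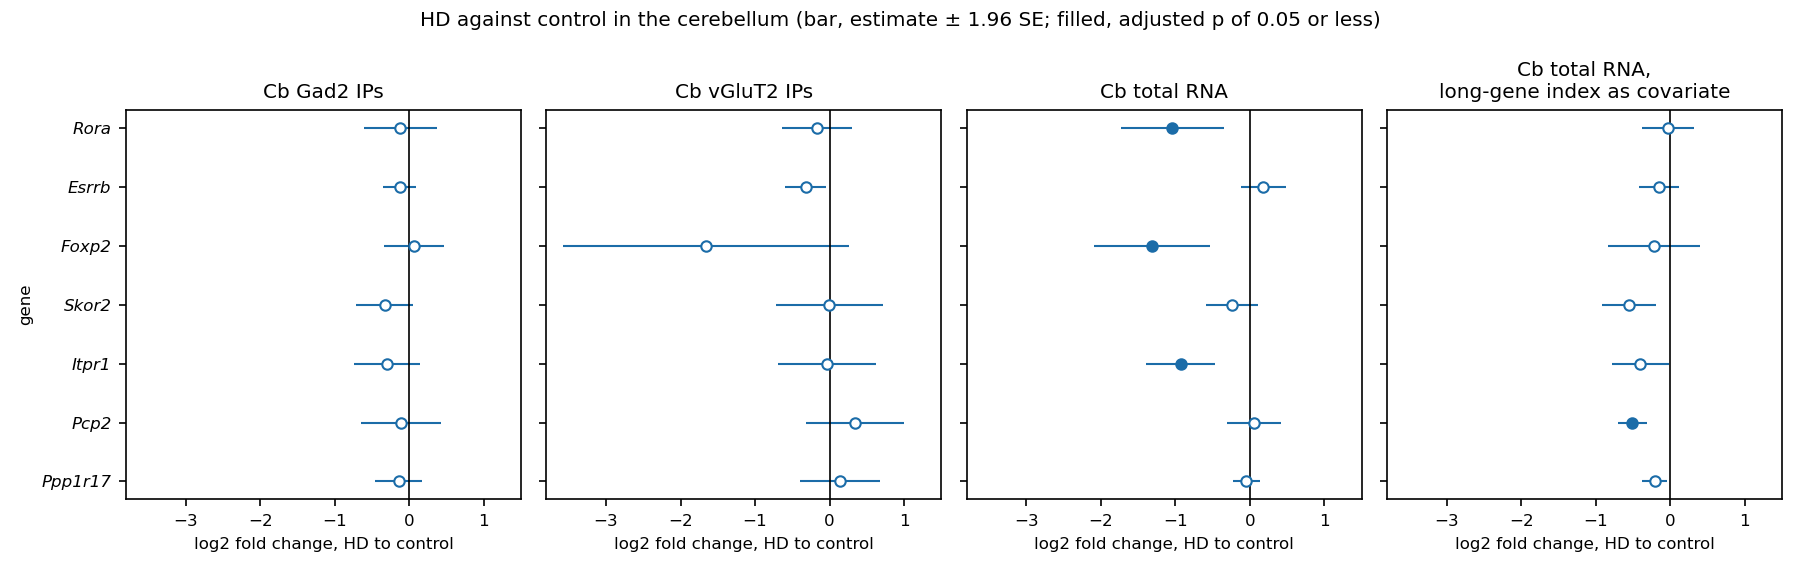
Log2 fold change, HD over control, of the 7 genes with 95% intervals, filled where the adjusted p is 0.05 or less. Panels are cerebellar Gad2 IPs, cerebellar vGluT2 IPs and cerebellar total RNA. The last panel is cerebellar total RNA with a long-gene index, described below, as a covariate. Filled points are Foxp2 (-1.31), Rora (-1.04) and Itpr1 (-0.93) in cerebellar total RNA, and Pcp2 (-0.51) in the last panel.

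In cerebellar vGluT2 IPs, 6 HD and 5 control, 0 of 7 members were called by edgeR, with 2.09% of 13487 genes called (282 genes, 2082 at an unadjusted p under 0.05, 665 by DESeq2; 1 member at an unadjusted p under 0.05 and 0 by DESeq2). Esrrb was 15.6, 21.6, 14.3, 18.2 and 16.7 CPM in controls and 11.6, 12.9 and 16.3 CPM (lowest, median, highest) in HD. The Esrrb groups overlapped, and its change was -0.32 (SE 0.139, adjusted p = 0.282). Foxp2 was 0.878, 1.78, 1.04, 0.917 and 20.3 CPM in controls and 0.128, 1.08 and 5.67 CPM in HD, with a change of -1.66 (SE 0.978, adjusted p = 0.446). Both groups hold a library with high Tcf7l2. The change was 0.48 without control replicate 5, -2.69 without HD replicate 5 and -0.53 (SE 0.609) without both, none called. Pcp2 was 0.34 (SE 0.336) and -0.057 without HD replicate 2, its highest library at 57.1 CPM, and Ppp1r17 was 0.14 (SE 0.272) and -0.077 without the same library. Rora was -0.17 (SE 0.239), Itpr1 -0.036 (SE 0.333) and Skor2 -0.0057 (SE 0.366), the last pair changing sign in 6 of 11 fits without a library, those without control replicates 2 and 4 and HD replicates 2 and 6 for both genes, control 5 and HD 4 for Itpr1, and control 3 and HD 1 for Skor2. Members had a median of -0.036 against -0.0078 over all genes. Among the other 25 Purkinje cell genes Ppp1r1b fell (-0.62, SE 0.126, adjusted p = 0.0214) and the median was -0.065, with Aldoc (-0.44) among the next in size and not called. Of 8 granule cell genes 2 fell (median -0.40), Neurod1 (-0.86, adjusted p = 0.0131) and Cbln3 (-0.80, adjusted p = 5.32e-04).

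Cerebellar total RNA was compared in 7 HD and 7 control libraries, and its member calls depended on the line and on single libraries, as given below. Foxp2, Rora and Itpr1 were called lower and the other 4 were not, with 25.6% of 14477 genes called, a share that 3 of 7 should be read against. Foxp2 in the Gad2 line was 3.39, 12.1 and 5.03 CPM in controls and 4.61, 2.27 and 6.89 CPM in HD, and in the vGluT2 line 9.81, 9.36, 5.23 and 21.2 CPM in controls and 3.77, 3.95, 1.95 and 2.94 CPM in HD. Rora in the Gad2 line was 129, 387 and 147 CPM in controls and 148, 72.7 and 299 CPM in HD, and in the vGluT2 line 377, 292, 198 and 337 CPM in controls and 82.8, 131, 72.6 and 124 CPM in HD. Itpr1 in the Gad2 line was 2076, 2628 and 1358 CPM in controls and 1092, 1015 and 2172 CPM in HD, and in the vGluT2 line 1991, 2288, 2721 and 2453 CPM in controls and 1585, 759, 736 and 916 CPM in HD. In the vGluT2 line every HD library was below every control for these 3 genes, and in the Gad2 line the groups overlapped. The share of all genes that separate in this way is not given, and 7565 of 14630 genes were called in the vGluT2 line alone. With the line as a covariate the log2 fold changes were -1.31 for Foxp2 (SE 0.396, 2.49-fold, adjusted p = 0.0345), -1.04 for Rora (SE 0.351, 2.06-fold, adjusted p = 0.0438) and -0.93 for Itpr1 (SE 0.239, 1.90-fold, adjusted p = 0.0274). Fewer cells of a type and less RNA per cell cannot be told apart in total RNA of a whole tissue. Pcp2 was 0.055 (SE 0.185), Esrrb 0.18 (SE 0.155), Skor2 -0.24 (SE 0.179) and Ppp1r17 -0.051 (SE 0.0921), none of them called. Over the members the median was -0.24 against -0.0027 over all genes.

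Within lines the vGluT2 line alone gave -1.87 for Foxp2 (adjusted p = 0.00376), -1.57 for Rora (6.78e-04) and -1.25 for Itpr1 (0.00224), with Esrrb higher at 0.45 (0.0426). In that fit 7565 of the 14630 genes tested were called, a share that these member calls should be read against. The Gad2 line alone gave -0.58 for Foxp2, -0.36 for Rora and -0.50 for Itpr1, with 0 genes called by edgeR. With the replicate number as a replicate block the changes were -1.22 for Foxp2 (adjusted p = 0.118), -1.10 for Rora (0.121) and -1.0 for Itpr1 (0.118), none called. Without control vGluT2 total RNA replicate 4, the library with high Tcf7l2, they were -1.0 (adjusted p = 0.0713), -0.97 (0.0854) and -0.89 (0.0606), none called, and 165 genes were called in place of 3704. Leaving out other single libraries also ended calls: Foxp2, Rora and Itpr1 lost their calls in 10, 11 and 9 of 14 such fits, with changes from -1.54 to -1.0, -1.35 to -0.90 and -1.13 to -0.83. Fits without control Gad2-line replicate 2, HD Gad2-line replicate 2, any of the 4 vGluT2-line controls, or HD vGluT2-line replicate 2, 3 or 4 lost all 3 calls, the fit without HD vGluT2-line replicate 1 lost Foxp2 and Rora, and that without HD Gad2-line replicate 1 lost Rora. Pcp2, at 0.055, changed sign without control Gad2-line replicate 2, HD Gad2-line replicate 2 or HD vGluT2-line replicate 3, and was -0.035 at the lowest.

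Called members were the longest ones, and length moved with HD in these libraries. Itpr1, Foxp2 and Rora have 18.3, 16.3 and 13.1 kb of exon, and Esrrb, Skor2, Pcp2 and Ppp1r17 have 6.05, 3.14, 1.83 and 1.76 kb. Of 1428 genes with 10 kb of exon or more, 35.1% were called lower in HD cerebellar total RNA and 3.08% higher (median log2 fold change -0.53), and of 4025 genes under 3 kb, 4.22% were called lower and 17.8% higher (median 0.22). A long-gene index, the median log2 deviation of genes with 10 kb of exon or more minus that of genes under 3 kb, was 0.73, 0.612, 0.337 and 0.731 in vGluT2-line controls and -0.42, -0.651, -0.858 and -0.376 in vGluT2-line HD libraries. In the Gad2 line it was -0.161, 0.732 and -0.256 in controls and -0.229, -0.702 and 0.698 in HD. It thus separated HD from control in the vGluT2 line and not in the Gad2 line, as the 3 genes did. With the index as a covariate, chosen after the data were seen, Foxp2 was -0.22, Rora -0.031 and Itpr1 -0.40, none called, Pcp2 was -0.51 (SE 0.0987, adjusted p = 0.0327) and called, Skor2 was -0.55 (SE 0.183), Ppp1r17 -0.21 (SE 0.0842) and Esrrb -0.15, not called, and 88 genes were called in all. The part of RNA length or quality in the lower levels was not tested beyond these values. In cerebellar Gad2 IPs, genes with 10 kb of exon or more had a median change of -0.023 and those under 3 kb of 0.0098. The index still varied among those IPs, from -0.844 in HD replicate 4, where Rora was 161 CPM, to 0.375 in HD replicate 3. With the index as a covariate no member was called in either set of cerebellar IPs. Itpr1 was then -0.29 (SE 0.120) and Rora -0.16 (SE 0.158) in Gad2 IPs, and Foxp2 -2.37 (SE 0.899) in vGluT2 IPs. In HD cerebral Gad2 IPs these medians were -0.21 and 0.061, in HD cerebral vGluT2 IPs -0.15 and 0.10, in HD SST IPs -0.076 and 0.072, in HD PV IPs -3.0e-04 and 0.0091, in HD cerebellar vGluT2 IPs 0.0099 and -0.027, and in HD cerebral total RNA 0.16 and -0.027.

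**Figure D4:**
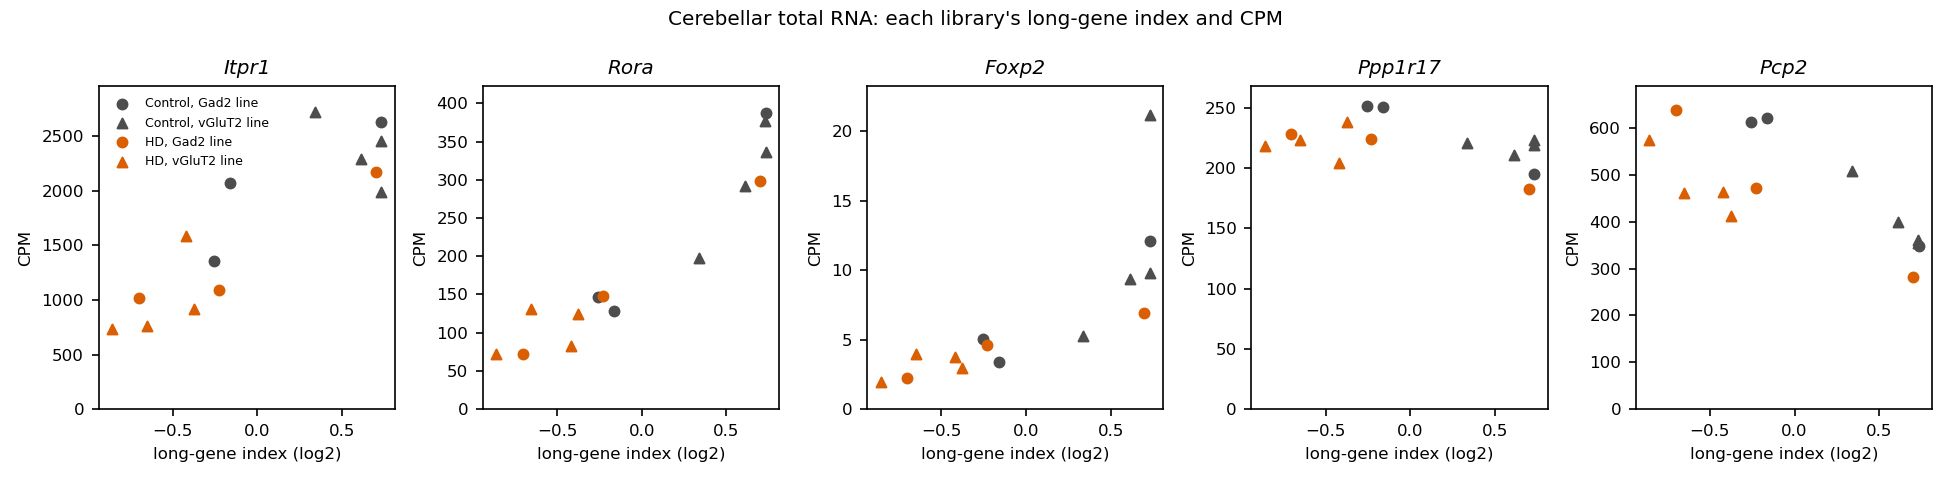
CPM of Itpr1, Rora, Foxp2, Ppp1r17 and Pcp2 in the 14 cerebellar total RNA libraries against each library's long-gene index in log2 units (grey control, orange HD, circles Gad2 line, triangles vGluT2 line). Itpr1 and Rora lie higher where the index is higher, in HD Gad2-line replicate 3 too, which has an index of 0.698 and 2172 and 299 CPM.

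Other gene groups in HD cerebellar total RNA moved as follows. Of all 14477 genes tested 1880 fell and 1824 rose. The total of 3704 called genes became 9 with the replicate block, 88 with the long-gene index and 165 without the high-Tcf7l2 library. It was 0 in the Gad2 line alone and 7565 in the vGluT2 line alone. The list calls here and in the next paragraph are those of the main fit only. Of the 25 further Purkinje cell genes 8 fell and 0 rose (median -0.21), among them Kcnma1 (-1.35, SE 0.321), Plcb4 (-1.32, SE 0.323), Ebf2 (-0.72, SE 0.223), Pcp4 (-0.60, SE 0.146), Calb1 (-0.55, SE 0.150) and Rgs8 (-0.36, SE 0.0870). Their summed level was 12907, 12307 and 12038 CPM in Gad2-line controls and 9865, 10916 and 10035 CPM in HD, and 11726, 11668, 12559 and 11856 CPM in vGluT2-line controls and 11582, 10449, 10312 and 11124 CPM in HD. HD sums were below every control of their line. In the calcium signalling pathway 5 of 13 genes fell and 1 rose (median -0.48): Plcb4, Itpr1, Calb1 and the calcium pump gene Atp2a2 (-0.45, SE 0.147) were among those that fell, and Gna11 rose (0.56, SE 0.146). Of the Rora-dependent genes Itpr1 and Pcp4 fell of 6 (median 0.0085; Slc1a6 0.12 and Pcp2 0.055 not called), and of the cGMP genes Prkg1 fell (-1.11, SE 0.331) and the phosphatase gene Ppp1ca rose (0.56, SE 0.153) of 5 (median -0.17; Gucy1a1 -0.38 and Gucy1b1 -0.17 not called). Of the relatives Rorb (-1.24, SE 0.371), Esrrg (-0.79, SE 0.280) and Foxp1 (-0.63, SE 0.211) fell and Esrra rose (0.38, SE 0.125) of 9 (median -0.29), with Itpr2 at -0.41 not called.

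Markers of other cell types were called in the same fit, whose number of called genes ran from 92 to 7456 without single libraries. Of molecular layer interneuron genes 5 of 6 fell (median -0.46; Kcna2 -0.83, Tfap2b -0.68, Lypd6 -0.49, Grik3 -0.44 and Sorcs3 -0.44). Among Golgi cell genes 1 of 4 fell, Lgi2 (-0.77), with Slc6a5 (-0.35), Grm2 (-0.058) and Gjd2 (-0.026) not called (median -0.20). General GABAergic genes had 2 of 3 that fell, Gad2 (-1.0) and Gad1 (-0.35), with Slc32a1 (0.21) not called (median -0.35). Oligodendrocyte genes had 2 of 4 that fell, Mobp (-1.05) among them, with Mog (0.13) and Mbp (-0.064) not called (median -0.55). Astrocyte and Bergmann glia genes had 1 of 5 that fell, Aqp4 (-1.01), with Gdf10 (-0.34), Apoe (0.31) and Slc1a3 (-0.26) not called (median -0.26). Thalamic genes had 1 of 4 that fell, Rorb (-1.24), with Tcf7l2 (-1.41), Slc17a6 (-1.31) and Prkcd (-0.046) not called (median -1.27). Granule cell genes had 1 of 8 that fell, Cbln3 (-0.55), and 1 that rose, Slc17a7 (0.57), with Etv1 (-0.75) and Gabra6 (-0.54) not called (median -0.37). Microglial genes had 2 of 5 that rose, Tmem119 (0.67) and Csf1r (0.52), with P2ry12 (-0.32) and Itgam (0.13) not called (median 0.13). Striatal genes had 1 of 5 that rose, Adora2a (0.76), with Drd1 (-0.72), Drd2 (-0.47) and Rgs9 (0.24) not called (median 0.14). Unipolar brush cell genes had 0 of 2 called by edgeR, Lmx1a (-0.83) and Eomes (-0.59), with a median of -0.71. Summed oligodendrocyte markers, of which Mbp, not called, was the most abundant, were 3527, 3886 and 4185 CPM in Gad2-line controls and 2825, 2709 and 2882 CPM in HD, and 4357, 4353, 4302 and 5184 CPM in vGluT2-line controls and 2758, 3017, 3715 and 2687 CPM in HD. Summed oligodendrocyte levels were thus lower in each HD library than in each control of its line, and their part in the members' result was not tested.

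Whether the HD effect differed between preparations was tested as an interaction. For Gad2 against vGluT2 IPs, 0 of 7 members were called by edgeR and 0 by DESeq2, with 0.107% of genes called (15, with 980 at an unadjusted p under 0.05 and 73 by DESeq2). Foxp2 was farthest at 1.78 (SE 0.986, adjusted p = 0.759), then Pcp2 at -0.40, Skor2 at -0.28, Esrrb at 0.24, Ppp1r17 at -0.23, Itpr1 at -0.22 and Rora at 0.10. For Gad2 IPs against total RNA, 0 members and 0% of genes were called by edgeR (3699 at an unadjusted p under 0.05, of them 1 member, and 235 by DESeq2, of them 0 members). Foxp2 was 1.44 (SE 0.460, adjusted p = 0.127), Rora 0.93 (SE 0.455, adjusted p = 0.195), Itpr1 0.65 (SE 0.349, adjusted p = 0.231), Esrrb -0.28, Pcp2 -0.11, Ppp1r17 -0.044 and Skor2 -0.043. The lower Foxp2, Rora and Itpr1 of total RNA were thus not shown to differ from the Gad2 IPs' values. The total RNA in that test was of both lines, and libraries of the same mouse were not paired. In total RNA of the Gad2 line alone the changes were -0.58, -0.36 and -0.50, none called by edgeR.

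In the cerebrum HD calls held no member. In cerebral Gad2 IPs 0 of 7 were called by edgeR and 0 by DESeq2, with 0.0279% of genes called (4, with 1319 at an unadjusted p under 0.05 and 75 by DESeq2). Foxp2 was 23.8, 61.9 and 81.4 CPM (lowest, median, highest) in controls and 19.3, 26.8 and 55.0 CPM in HD. The groups overlapped, and the change of -0.71 (SE 0.330) had an adjusted p of 0.536. Itpr1 was -0.39 (SE 0.353), Rora -0.23 (SE 0.237) and Esrrb 0.082 (SE 0.173), Itpr1 standing at -0.90 without HD replicate 2 and Esrrb at -0.011 without control replicate 5. Pcp2 (0.18, SE 1.49), Skor2 (0.11, SE 0.798) and Ppp1r17 (0.38, SE 0.862) rested on the libraries with high Car8. Without HD replicate 2 they were -0.83, -0.65 and -0.37, and without control replicate 4 they were 2.5, 0.99 and 1.39. Without all 4 Gad2 IPs with high Car8, Pcp2 was -0.16 (SE 0.712), Ppp1r17 -0.25 (SE 0.361), Itpr1 -0.75 (SE 0.277), Rora -0.55 (SE 0.228) and Foxp2 -0.91 (SE 0.399), none called, and Skor2 did not pass the filter.

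In PV IPs 0 of 7 members were called by edgeR and 0 by DESeq2, with 0.0408% of genes called (6, with 619 at an unadjusted p under 0.05 and 42 by DESeq2). Skor2 was 1.34 (SE 1.25), Ppp1r17 0.89 (SE 1.22), Pcp2 0.58 (SE 1.46), Itpr1 0.48 (SE 0.467), Esrrb 0.16 (SE 0.136), Rora 0.10 (SE 0.280) and Foxp2 -0.059 (SE 0.200). Without HD replicate 3, the library with the most Car8, Skor2 was -2.22, Ppp1r17 -2.97, Pcp2 -4.37, Itpr1 -0.42 and Rora -0.18. Without all 4 PV IPs with high Car8, Pcp2 was -0.43 (SE 0.526), Ppp1r17 -0.54 (SE 0.311), Itpr1 -0.25 (SE 0.203), Rora -0.26 (SE 0.217) and Foxp2 -0.27 (SE 0.209), none called. In vGluT2 IPs 0 of 5 tested members and 0% of genes were called by edgeR (1092 at an unadjusted p under 0.05, 25 by DESeq2), the members lying between -0.49 for Foxp2 (SE 0.315) and 0.25 for Esrrb (SE 0.180), with Rora at -0.44 (SE 0.241), Itpr1 at -0.36 (SE 0.169) and Ppp1r17 at -0.093 (SE 0.715). Pcp2 and Skor2 did not pass the filter there. Ppp1r17 was 0 CPM in HD replicate re_R1, where 3 counts would be 0.0590 CPM, and its change was 0.17 without that library. In SST IPs 0 of 6 tested members and 0% of genes were called by edgeR (216 at an unadjusted p under 0.05, 2 by DESeq2), with changes from -0.31 for Esrrb (SE 0.213) to 0.13 for Ppp1r17 (SE 0.584), with Itpr1 at -0.26 (SE 0.352), Rora at -0.19 (SE 0.297) and Foxp2 at 0.034 (SE 0.306), and Skor2 below the filter. Pcp2 (0.11, SE 0.927) and Ppp1r17 were -1.93 and -0.93 without HD replicate 2. In cerebral total RNA of the Gad2, vGluT2 and PV lines 0 of 6 tested members were called by edgeR and 0 by DESeq2, with 0.215% of genes called (32, with 1007 at an unadjusted p under 0.05 and 119 by DESeq2). Esrrb was lowest there at -0.45 (SE 0.136, adjusted p = 0.320), and Foxp2 (0.37, SE 0.443), Rora (0.35, SE 0.429), Ppp1r17 (0.28, SE 0.512), Itpr1 (0.092, SE 0.379) and Pcp2 (-0.12, SE 1.07) were nearer to their errors, with Skor2 below the filter. Without the total RNA libraries with high Car8, Pcp2 was -1.75 (SE 0.751), Itpr1 -0.041 (SE 0.450) and Ppp1r17 -0.19 (SE 0.329), none called. The other 25 Purkinje cell genes had 0 called by edgeR in each of these cerebral comparisons, with medians of 0.026 in Gad2 IPs, 0.29 in PV IPs, -0.12 in vGluT2 IPs, -0.20 in SST IPs and -0.12 in total RNA. Of the other lists only the striatal projection neuron genes Adora2a (-0.87, SE 0.173, adjusted p = 0.0494) and Penk (-0.85, SE 0.167, adjusted p = 0.0494) fell, in total RNA.

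RORα and ERRβ both bind DNA at sites that hold the letters AGGTCA, so the promoters of the members were read for them. RefSeq start sites on GRCm38.p6 gave 7 windows of 250 bases before a start for 3 members, 4 of Pcp2, 2 of Esrrb and 1 of Rora, and Foxp2, Itpr1, Skor2 and Ppp1r17 are named only. AGGTCA on either strand was in 14% of all windows (4607 of 32851), in 3 of the 4 windows of Pcp2 and in none of those of Esrrb and Rora. The Pcp2 matches lay at 3625554-3625559 on chromosome 8, which is 12 bases before the start at 3625547 and 87 before that at 3625472, and at 3625057-3625062, 26 bases before the start at 3625036. The stretch of 30 bases before the first of these starts is shown because Pcp2 is the member with the letters near its start, with AGGTCA in capitals.
Pcp2, chr8:3625548-3625577, minus strand: cttttaaaaggccttctcAGGTCAgagacc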

How the data were processed

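The authors aligned reads to GRCm38.p6 with STAR, quantified them with Salmon and deposited estimated counts for 55401 mouse genes and 92 ERCC spike-ins in 106 libraries. Counts were rounded and the spike-ins left out. Genes were matched to GENCODE M21, and protein-coding genes with a mean count above 10 were tested with edgeR 4.0.16 (R 4.3.3), by its quasi-likelihood test on TMM-scaled counts with Benjamini-Hochberg adjustment. IP, cell type and region comparisons needed an adjusted p of 0.05 or less and 2-fold or more, and HD comparisons and interactions an adjusted p of 0.05 or less. Alternatives were DESeq2 1.42.0, its size factors in edgeR, no filter, other choices of total RNA, control mice only, blocks and single libraries left out. IP and total RNA, and the regions, often came from the same mouse, which the main tests did not pair. Re-sequenced libraries were used as deposited. All 7 members are named in each comparison, a member below the filter as such, and of the lists described gene by gene the 4 of largest log2 change, plus genes called in an HD comparison. Some genes that meet this rule are left out of the text. Like-pattern genes are the 3 with the highest r. The rule for members uses no measured value, but members and lists were chosen with earlier results of these data known.

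Median depth of each group, in estimated counts, was 35626911 in C_GadCb, 31901371 in C_GadCb_tot, 34372986 in C_GadCer, 37448448 in C_GadCer_tot, 31923772 in C_PV, 32430971 in C_PV_tot, 30536348 in C_SST, 37442417 in C_SST_tot, 36498914 in C_VglutCb, 41848615 in C_VglutCb_tot, 36255018 in C_VglutCer, 33535507 in C_VglutCer_tot, 40334577 in HD_GadCb, 29017527 in HD_GadCb_tot, 36163928 in HD_GadCer, 38987163 in HD_GadCer_tot, 36313896 in HD_PV, 32756368 in HD_PV_tot, 34310722 in HD_SST, 39030330 in HD_SST_tot, 37796747 in HD_VglutCb, 45464390 in HD_VglutCb_tot, 40790140 in HD_VglutCer and 35385764 in HD_VglutCer_tot.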

Additional observations from a re-analysis of the deposited data

Results flagged for a closer look

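A library was listed as apart from its group when the gap to its nearest neighbour, over the range of the group, passed the critical value of Dixon's test at about 1 in 20 by chance. The 7 genes gave 105 groups that could be tested, and 22 held such a library. Values are CPM, with the range of the other libraries of the group in brackets, and none was removed from the tests.

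Pcp2 was apart in C_GadCer replicate 4 at 72.6 (0.0835 to 12.5), HD_PV replicate 3 at 176 (0.718 to 1.78), HD_SST replicate 2 at 3.37 (0.0992 to 0.459), HD_VglutCb replicate 2 at 57.1 (14.5 to 27.9) and HD_VglutCer replicate 1 at 0.453 (0 to 0.129). Foxp2 was apart in C_VglutCb replicate 5 at 20.3 (0.878 to 1.78), HD_VglutCb replicate 5 at 5.67 (0.128 to 1.53), and on the low side in C_VglutCer replicate 1 at 9.10 (22.5 to 29.1), HD_GadCb replicate 4 at 13.6 (28.9 to 35.2) and HD_PV replicate 2 at 7.73 (12.5 to 14.4). Itpr1 was apart in HD_GadCer replicate 2 at 1032 (232 to 371) and HD_PV replicate 3 at 3090.1 (544 to 681). Rora was apart in C_VglutCb replicate 2 at 229 (131 to 157) and on the low side in C_VglutCer replicate 1 at 32.6 (71.5 to 94.4). Skor2 was apart in C_GadCer replicate 4 at 1.88 (0 to 0.502), C_PV replicate 2 at 2.70 (0.0276 to 0.635) and HD_PV replicate 3 at 7.67 (0.0550 to 0.186). Ppp1r17 was apart in C_GadCer replicate 4 at 31.3 (1.71 to 10.3), C_PV replicate 2 at 54.8 (2.15 to 16.5), HD_GadCb replicate 1 at 1164 (727 to 879), HD_PV replicate 3 at 130.2 (1.14 to 2.73) and HD_SST replicate 2 at 4.56 (0.688 to 1.02).

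Pcp2, Skor2 and Ppp1r17 were also listed because they were called higher than cerebellar total RNA in Gad2 IPs and called lower in vGluT2 IPs. Their log2 differences between the IPs, tested directly, were 5.99, 4.62 and 5.68.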

How the results depend on the processing

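Of 656 member values under alternatives fixed before the tests, 617 kept direction and call, 15 lost a call, 8 gained a call and 16 changed sign. Fits without single libraries gave 632 the same, 30 lost calls and 64 changes of sign. The alternatives added after seeing the data (the long-gene index, single lines for cerebellar total RNA, and leaving out libraries with high Car8 or Tcf7l2) gave 101 the same, 14 lost, 3 gained and 15 of changed sign. The cause was not tested for any of these. All 7 members kept their calls between cerebellar Gad2 and vGluT2 IPs under every edgeR alternative.

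Counts of members called in IP against total RNA moved as follows. In cerebral Gad2 IPs the 4 higher became 2 when only the total RNA of that line was used and 2 without high-Car8 libraries. In PV IPs the 6 higher became 3 without high-Car8 libraries. Skor2 was below the filter in both fits without those libraries, and so not tested. In cerebral vGluT2 IPs the 2 lower became 1 with total RNA of the same line, with the mouse as a replicate block and without high-Car8 libraries, and the 1 higher became 3 with control mice only. In SST IPs the 1 lower became 0 with total RNA of all cerebral lines and 0 without high-Car8 libraries, and 2 with the mouse as a replicate block. In the regions, members lower in cerebellum went from 0 to 1 in Gad2 IPs with control mice only and from 0 to 1 in total RNA without the high-Tcf7l2 library.

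In HD cerebellar total RNA the 3 members called became 0 with the replicate number as a replicate block, 0 in the Gad2 line only, and 0 without the high-Tcf7l2 library. With the long-gene index those 3 lost their calls and 1 other, Pcp2, was called. In the vGluT2 line only the 3 were called and so was Esrrb, with 7565 of 14630 genes called. Without single libraries 0 to 3 members were called.

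Signs changed for these values outside the fits without single libraries. Rora in cerebral Gad2 IPs against total RNA was -0.039 with the same line only, and Pcp2 there was -0.76 without high-Car8 libraries. Esrrb in SST IPs, at -3.5e-04, was 0.0039 by DESeq2, 0.0026 with DESeq2 size factors, 0.014 with no filter, 0.11 with all cerebral lines, 0.0075 with control mice only and 0.054 without high-Car8 libraries. HD changes in cerebellar vGluT2 IPs were 0.024 for Itpr1 and 0.16 for Skor2 with the replicate block, and 0.043 for Itpr1 without high-Tcf7l2 libraries. In cerebellar total RNA Pcp2 was -0.51 and Esrrb -0.15 with the index, and -0.19 and -0.20 in the Gad2 line only. With the replicate block HD changes in PV IPs were -0.25 for Pcp2, -0.21 for Rora and -0.063 for Ppp1r17, in cerebral vGluT2 IPs 0.28 for Ppp1r17, and in SST IPs -0.62 for Pcp2 and -0.31 for Ppp1r17. Without high-Car8 libraries HD changes in cerebral Gad2 IPs were -0.16 for Pcp2 and -0.25 for Ppp1r17, in PV IPs -0.43 for Pcp2, -0.25 for Itpr1, -0.26 for Rora and -0.54 for Ppp1r17, and in cerebral total RNA -0.041 for Itpr1 and -0.19 for Ppp1r17. Without the re-sequenced library Ppp1r17 in cerebral vGluT2 IPs was 0.17, and the Rora interaction between Gad2 and vGluT2 IPs was -0.025.

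Lowest and highest HD changes over fits without a single library, where the sign changed, were as follows. Cerebellar Gad2 IPs: Foxp2 -0.036 and 0.20, Rora -0.21 and 0.057. Cerebellar vGluT2 IPs: Pcp2 -0.057 and 0.52, Foxp2 -2.69 and 0.48, Itpr1 -0.34 and 0.11, Skor2 -0.25 and 0.17, Ppp1r17 -0.077 and 0.28. Cerebellar total RNA: Pcp2 -0.035 and 0.17. Cerebral Gad2 IPs: Pcp2 -0.83 and 2.5, Esrrb -0.011 and 0.17, Skor2 -0.65 and 0.99, Ppp1r17 -0.37 and 1.39. PV IPs: Pcp2 -4.37 and 1.56, Foxp2 -0.18 and 0.071, Itpr1 -0.42 and 0.75, Rora -0.18 and 0.27, Skor2 -2.22 and 2.79, Ppp1r17 -2.97 and 1.99. Cerebral vGluT2 IPs: Ppp1r17 -0.30 and 0.17. SST IPs: Pcp2 -1.93 and 0.54, Foxp2 -0.19 and 0.25, Rora -0.33 and 0.033, Ppp1r17 -0.93 and 0.41. Cerebral total RNA: Pcp2 -1.27 and 0.76, Itpr1 -0.051 and 0.29, Ppp1r17 -0.15 and 0.68.

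Numbers of genes called in HD comparisons also moved. In cerebellar total RNA they ran from 92 to 7456 without single libraries, and were 9 with the replicate block. DESeq2 gave no adjusted p for Skor2 in PV IPs against total RNA, Foxp2 between the cerebellar IPs, in HD cerebellar vGluT2 IPs and in the interaction of those IPs, Skor2 and Ppp1r17 in HD PV IPs, and Ppp1r17 in HD cerebral vGluT2 IPs.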

Other observations

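The re-sequenced HD cerebral vGluT2 IP re_R1 had Pcp2 at 0.0197 CPM, Car8 at 0.0393 and Ppp1r17, Skor2, Gabra6 and Fat2 at 0, with 3 counts at 0.0590 CPM. The other HD cerebral vGluT2 IPs had Ppp1r17 between 0.472 and 1.76 CPM and Car8 between 3.18 and 4.55 CPM. The granule cell gene Cbln3 was 3.19 CPM in re_R1, within the 1.48 to 30.8 CPM of those other libraries.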
